A study of Mus musculus with 7 samples.

Results

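The genes described here encode the protein machinery that makes ribosomes translate mRNA: initiation factors (symbols starting with Eif), elongation factors (Eef) and the aminoacyl-tRNA synthetases, which load each tRNA with its amino acid (symbols such as Iars, Eprs or Aars). They were chosen by symbol, with earlier results of these data known. The expression table held 80 such genes of 5194 genes in all, and RefSeq lists 107 protein-coding mouse genes under the same symbols. The other 27, among them the helicase genes Eif4a1 and Eif4a2 and the mitochondrial synthetase genes Aars2 and Hars2, were not analysed here.

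The samples came from fetal livers of mouse embryos at E13.5 whose Klf1 gene carries a hemagglutinin tag, so that an antibody to the tag precipitates EKLF, the erythroid transcription factor that Klf1 encodes. Every group carried this tag, and no untagged liver was part of the series. Erythroblasts were sorted as Ter119+CD71+ cells, and progenitors as Ter119-CD71- and Ter119-CD71+ cells in 1 pool. Ter119 marks red cells as they mature, and CD71 is the receptor for transferrin. Each population was sorted at least 3 times, per the labels. The series has 7 samples: for erythroblasts 1 EKLF chromatin immunoprecipitation (ChIP-seq) library, 2 RNA libraries and 1 input library, and for progenitors 1 library of each kind. The deposited files gave 1 column of RNA coverage and 1 pooled peak list per stage, so differences between the stages could not be checked against replicates and were not tested.

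Initiation brings the small ribosomal subunit, the initiator tRNA carried by eIF2 and the mRNA cap complex eIF4F together, and is the step at which cells mostly set the rate of protein synthesis. Phosphorylation of eIF2 lowers that rate, and in red cell precursors the kinase HRI, encoded by Eif2ak1, does this when heme is short, which keeps globin chains in balance with heme. Elongation factors then move the ribosome along the mRNA, and eEF2 kinase, encoded by Eef2k, slows this step.

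RNA values are the deposited coverage signal of coding exons, summed over the exons of the transcript with the most listed exons. Exon length is not divided out, so differences are taken for 1 gene between stages. Low or high coverage of different genes is no measure of their relative amounts. Only exons with at least 0.8 in both stages were listed. Differences are log2((erythroblasts + 1) / (progenitors + 1)), and a gene is said to have risen or fallen where it differed at least 2-fold by this measure. Tfrc, which encodes CD71, had 148 in erythroblasts and 21.3 in progenitors, but CD71 was itself used for the sort. Of 9 listed erythroid marker items 7 rose, while Klf1 (log2 difference 0.96) and Epor (0.27) did not pass 2-fold. None of 4 stem and progenitor markers and 1 of 22 markers of other blood and liver cell types (the megakaryocyte gene Gp1ba, 31.6 in erythroblasts and 9.35 in progenitors) was listed. A gene with coverage in 1 stage only would not be listed, so these absences do not bear on the purity of the stages.

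Most translation factor genes stayed within 2-fold of their progenitor level, and the extremes were both kinases. Eif2ak1 was the highest of the 80 differences, at 6.14-fold higher in erythroblasts, and Eef2k the lowest, at 7.06-fold lower. In all, 8 of the 80 genes rose, 5 fell and 67 did neither. Over all 5194 genes 15.3% rose and 13.2% fell, so the 8 and 5 genes, 10% and 6.25% of the members, are below the background in both directions. With quantile normalization of the gene sums 8 rose and 8 fell, against 14.2% and 14.4% of all genes. The median log2 difference of the members was -0.27, against 0.03 over all genes, with 51 members below zero and 29 above. The middle 50% of the members lay between -0.62 and 0.35, and that of all genes between -0.57 and 0.65. In sorted bulk RNA, fewer cells of a kind and less RNA per cell cannot be told apart.

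**Figure D1:**
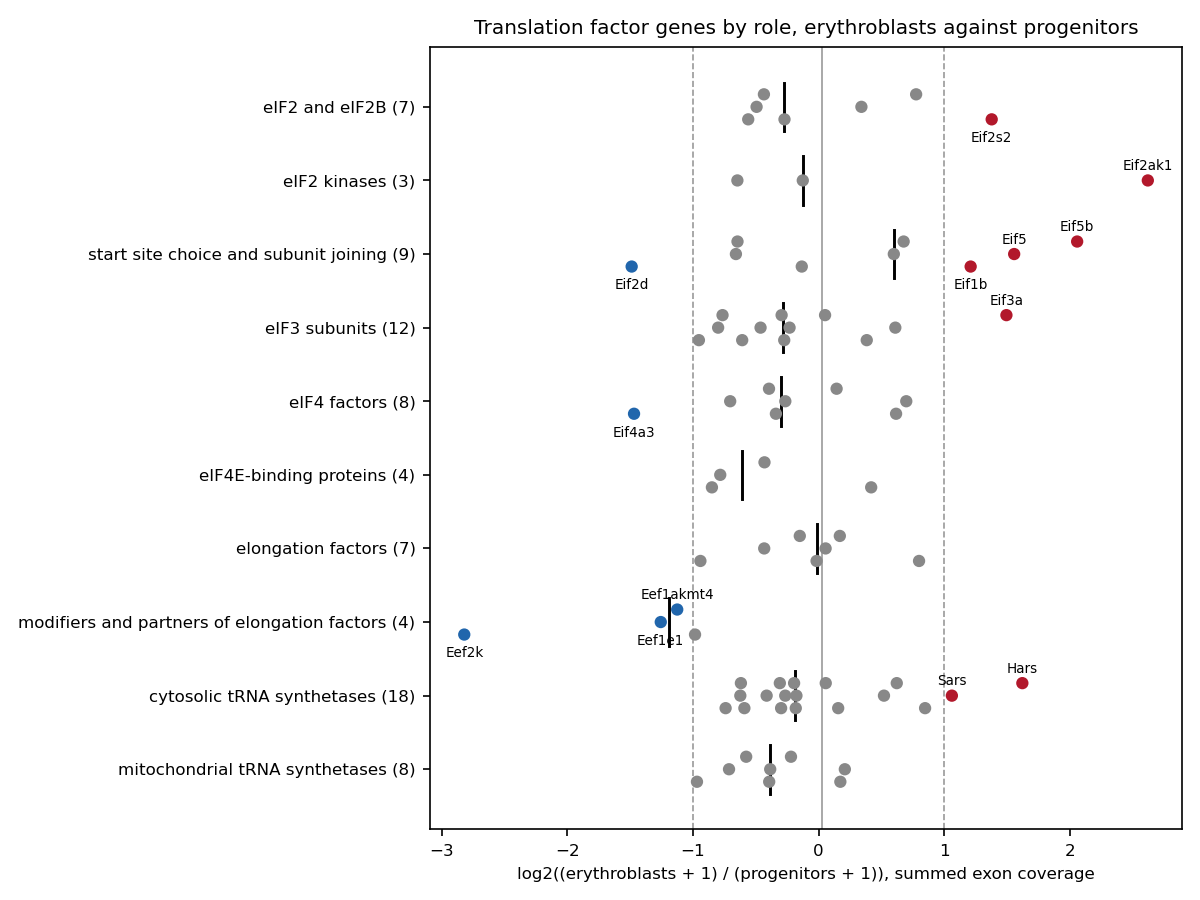
Log2 difference of summed exon coverage, erythroblasts over progenitors, for each of the 80 genes (points), in rows by role with the number of genes. Black ticks are role medians, the grey line is the median of all genes (0.03), dashed lines mark 2-fold, red points rose and blue points fell; Eif2ak1 stands at the right end and Eef2k at the left.

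The genes that rose were, beside Eif2ak1, the initiation genes Eif5b, Eif5, Eif3a, Eif2s2 and Eif1b and the synthetase genes Hars and Sars. Those that fell were, beside Eef2k, Eif2d, Eif4a3, Eef1e1 and Eef1akmt4. Eif2s2, Eif1b, Sars, Eef1e1 and Eef1akmt4 were no longer past 2-fold with a pseudocount of 10, and Eif2s2 and Eef1akmt4 rested on 1 listed exon each. The other 8 kept their call under all 10 alternatives of scaling, filter and exon summary.

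**Figure D2:**
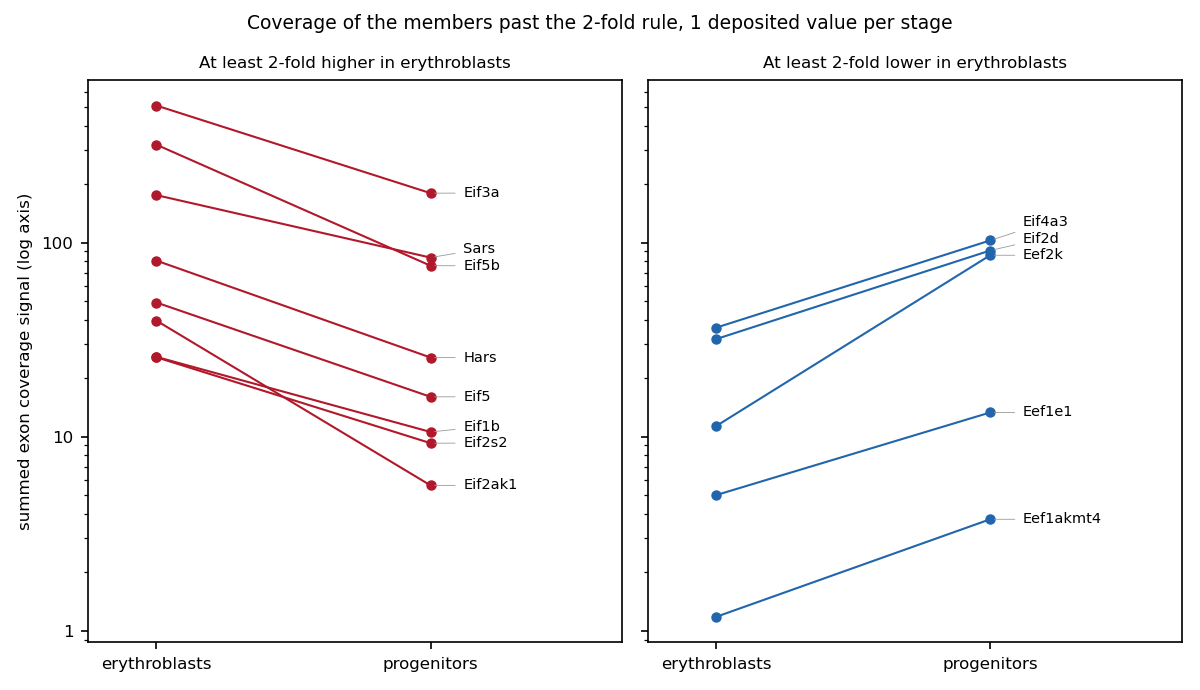
Summed exon coverage signal (log axis) of the 8 genes that rose (left panel) and the 5 that fell (right panel), with the erythroblast value left and the progenitor value right, 1 deposited value per stage. Eif2ak1 and Eef2k have the steepest lines.

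The sequences upstream of these genes are shown because EKLF peaks lay at many of them. They are the 250 bases before the RefSeq start on build GRCm38.p6, in the direction of the gene, for the 6 genes with a peak that differed most, and for Eif2ak1, added for its difference. Capitals mark matches on either strand to CCNCNCCC, the kind of letters EKLF is known to bind, and to the E-box CACGTG. No match to TGATGNAA, letters of the ATF4 type, lay in these 7 windows. For Eef2k the most upstream of 3 listed starts is shown. The windows were not laid over the peaks, which are on build mm9, so a match need not lie under a peak. At Eef2k and Eif2d the erythroblast peak was centred 22.2 and 6.70 kb inside the gene, and Eif2ak1 had no peak within 5 kb of its listed exons.
Eif2ak1 (chr5:143817542-143817791, plus strand): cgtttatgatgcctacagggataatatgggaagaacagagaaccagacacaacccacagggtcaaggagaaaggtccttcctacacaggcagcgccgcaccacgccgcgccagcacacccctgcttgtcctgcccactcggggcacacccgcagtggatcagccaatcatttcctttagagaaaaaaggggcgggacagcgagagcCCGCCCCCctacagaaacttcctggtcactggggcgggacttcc
Eif5b (chr1:37997760-37998009, plus strand): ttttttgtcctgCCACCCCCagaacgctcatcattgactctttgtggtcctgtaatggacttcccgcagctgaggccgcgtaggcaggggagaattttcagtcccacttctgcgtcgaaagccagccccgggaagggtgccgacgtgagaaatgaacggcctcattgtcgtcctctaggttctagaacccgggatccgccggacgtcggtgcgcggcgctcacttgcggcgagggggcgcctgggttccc
Eif5 (chr12:111537851-111538100, plus strand): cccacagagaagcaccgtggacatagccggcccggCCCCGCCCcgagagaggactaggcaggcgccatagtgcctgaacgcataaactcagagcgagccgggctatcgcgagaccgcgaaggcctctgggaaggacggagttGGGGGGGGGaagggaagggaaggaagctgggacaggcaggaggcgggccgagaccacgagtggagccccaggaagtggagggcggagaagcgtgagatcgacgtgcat
Eif3a (chr19:60790694-60790943, minus strand): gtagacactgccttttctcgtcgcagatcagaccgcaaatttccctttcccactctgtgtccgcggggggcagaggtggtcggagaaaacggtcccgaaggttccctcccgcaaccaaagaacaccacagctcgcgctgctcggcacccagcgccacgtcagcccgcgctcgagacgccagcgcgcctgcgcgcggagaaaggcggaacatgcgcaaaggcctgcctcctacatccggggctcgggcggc
Eef2k (chr7:120842581-120842830, plus strand): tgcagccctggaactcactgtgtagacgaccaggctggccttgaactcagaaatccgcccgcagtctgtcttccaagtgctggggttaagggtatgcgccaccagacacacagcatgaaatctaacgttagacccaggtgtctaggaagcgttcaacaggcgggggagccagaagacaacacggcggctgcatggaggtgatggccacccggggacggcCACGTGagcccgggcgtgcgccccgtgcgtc
Eif2d (chr1:131152957-131153206, plus strand): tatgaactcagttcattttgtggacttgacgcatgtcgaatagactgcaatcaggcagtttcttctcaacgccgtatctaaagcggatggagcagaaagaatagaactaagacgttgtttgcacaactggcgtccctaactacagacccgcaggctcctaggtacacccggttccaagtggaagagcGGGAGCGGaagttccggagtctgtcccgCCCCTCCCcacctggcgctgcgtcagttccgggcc
Eif4a3 (chr11:119300044-119300293, minus strand): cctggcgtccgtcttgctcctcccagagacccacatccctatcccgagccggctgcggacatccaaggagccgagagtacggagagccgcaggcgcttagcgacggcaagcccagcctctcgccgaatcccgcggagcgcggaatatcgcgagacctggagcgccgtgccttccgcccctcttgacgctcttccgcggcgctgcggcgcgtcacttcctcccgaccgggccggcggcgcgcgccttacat

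Eif5 held 3 matches to CCNCNCCC, of which 2 overlapped, Eif2d held 2, and Eif5b and Eif2ak1 held 1 each. The shown start of Eef2k held an E-box and no CCNCNCCC, while another of its 3 starts held 2 matches to CCNCNCCC. Eif3a and Eif4a3 held neither. RefSeq starts were found for 61 of the 80 genes, with 76 starts in all, some of which overlap. CCNCNCCC lay in 55.3% of these windows, in 63.8% of the 5409 windows of genes in the expression table and in 45.9% of all 32851 windows. The median GC content was 59.4%, 60.4% and 52.4% in those 3 sets. The E-box, to which MYC and related factors bind, lay in 19.7% of the members' windows, against 9.21% for the genes of the table and 6.02% of all windows. TGATGNAA lay in 6.58%, 1.79% and 3.45%, and its 5 members were Aars, Gars, Tars, Eif2s3x and, at another start than the one shown, Eef2k. These are counts of letters and no test was made of them.

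The eIF2 pathway held the largest rise. Eif2ak1 had 39.6 in erythroblasts and 5.61 in progenitors, a log2 difference of 2.62, on 3 listed exons. These exons had 14.1, 11.6 and 13.9 in erythroblasts, from the 5' end on, against 3.36, 1.42 and 0.83 in progenitors. The last of the progenitor values is close to the listing limit of 0.8, so exons of this gene with less in progenitors would not be in the table. The other listed eIF2 kinase genes had little coverage: Eif2ak3, whose product PERK senses stress of the endoplasmic reticulum, had 1.33 in erythroblasts and 1.54 in progenitors. Eif2ak4, whose product GCN2 senses uncharged tRNA, had 0.813 in erythroblasts and 1.84 in progenitors. Both rested on 1 exon, and their log2 differences were -0.13 and -0.65.

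The subunits of eIF2 itself were higher in erythroblasts by value, and 1 of 3 passed 2-fold. Eif2s2, the beta subunit, rose to 25.6 in erythroblasts, against 9.25 in progenitors, on a single exon. Eif2s1, the alpha subunit that the kinases phosphorylate, had 46.6 in erythroblasts and 26.8 in progenitors, a log2 difference of 0.78, with 3 of 5 exons higher. Eif2s3x, the gamma subunit, had 4.26 and 3.15 in the same order. The genes of eIF2B, the exchange factor that reloads eIF2 with GTP, lay below zero by their sums, while the median exon ratio of Eif2b5 was 0.11, with 6 of 11 exons higher. Eif2b1, Eif2b2, Eif2b4 and Eif2b5 had log2 differences between -0.56 and -0.27, none past 2-fold. Eif2b1 had 9.75 in erythroblasts and 14.9 in progenitors, with all 4 exons lower.

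Genes that act on the same phosphorylation from the other side were set beside these. Ppp1r15a, whose product GADD34 brings a phosphatase to eIF2, rose to 697 in erythroblasts, against 39.6 in progenitors, a log2 difference of 4.11 on 2 exons. Ppp1r15b, its constitutive relative, rose to 165 in erythroblasts, against 77.1 in progenitors. Ddit3, which encodes the stress factor CHOP, rose to 34.7, against 9.50 in progenitors. Atf4, whose mRNA is translated better when eIF2 is phosphorylated, had 31.1 in erythroblasts and 23.1 in progenitors, and Asns, a target of ATF4, had 156 in both. Of the 13 listed genes of the stress response and mTOR list 4 rose and none fell, against 15.3% and 13.2% of all genes. This list was chosen with earlier results of these data known. The fourth gene that rose was Tsc1, an inhibitor of mTOR, with 19.0 in erythroblasts and 8.34 in progenitors on 3 exons. Tsc2, on the same list, had 40.8 in erythroblasts and 54.9 in progenitors, a log2 difference of -0.42, with 4 of 15 exons higher. Gcn1, the gene of this list with the most listed exons, had 124 in erythroblasts and 202 in progenitors. Its log2 difference was -0.70, with 6 of 34 exons higher. Mtor, Rptor, Rps6kb1 and Rps6kb2 lay between -0.32 and 0.45.

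Factors of start site choice and subunit joining included 3 of the 8 genes that rose, with 3 of 9 past 2-fold upward and 1 downward. Eif5b, the GTPase that joins the large subunit, had 319 in erythroblasts and 76.0 in progenitors, a log2 difference of 2.06. Of its 15 exons 13 were higher, and the 2 that were not had little coverage, at most 1.94 in either stage. Eif5, which triggers GTP hydrolysis by eIF2, had 49.1 in erythroblasts and 16.04 in progenitors, and all 7 exons were higher, by 0.62 to 2.70 on the log2 scale. Eif1b, a close relative of the start codon factor Eif1, had 25.7 in erythroblasts and 10.6 in progenitors with all 3 exons higher. Eif1 itself had 6.53 and 3.71 in the same order, a log2 difference of 0.68 on 1 exon.

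Eif2d fell to 31.8 in erythroblasts, against 91.0 in progenitors, and all 11 exons were lower. Its product delivers tRNA to the ribosome outside the usual eIF2 route. Eif6, which keeps free large subunits from joining too early, had 24.5 in erythroblasts and 39.2 in progenitors, a log2 difference of -0.66. The remaining genes of this role, Eif1a, Eif1ad and Eif1ax, lay between -0.65 and 0.60 with at most 3 listed exons each.

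Of the 12 listed subunits of eIF3, the large scaffold that holds the small ribosomal subunit, only Eif3a rose and none fell. Eif3a, its largest core subunit, had 508 in erythroblasts and 180 in progenitors, a log2 difference of 1.49 with 15 of 16 exons higher. The others ranged from -0.95 to 0.61, and 8 of the 12 were below zero. Eif3c, the partner of Eif3a in the core, had 322 in erythroblasts and 560.5 in progenitors, a log2 difference of -0.80, but the median of its 19 exon ratios was -0.17. Exon 13 from the 5' end had 73.2 in erythroblasts and 192 in progenitors, and exon 14 had 85.4 and 145 in the same order, so a few exons set its sum. Eif3m had 18.4 in erythroblasts and 36.5 in progenitors, just inside the 2-fold limit at -0.95, with all 4 exons lower. Eif3k lay above zero, with 284 in erythroblasts and 186 in progenitors: its summed difference was 0.61, while 6 of its 8 exons were more than 2-fold higher and their median was 1.53.

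The eIF4 group binds the mRNA cap and unwinds the leader. Eif4g1, its scaffold, had 625 in erythroblasts and 822 in progenitors, and its 31 exon ratios were split, 14 of them higher. Eif4g2, a relative that lacks the site for the cap-binding protein, had 352 and 423 in the same order, with single exons from -2.12 to 3.25, the widest spread of exons among the members (SD 1.58 on the log2 scale). Eif4e, which encodes the cap-binding protein, had 6.32 in erythroblasts and 3.52 in progenitors on 2 exons. Eif4b, a helper of the helicase, had 266 in erythroblasts and 433 in progenitors, a log2 difference of -0.70, and none of its 13 exons was higher. Eif4h, a relative of Eif4b, had 96.7 and 62.7 with all 6 exons higher, a log2 difference of 0.62. Eif4a3 fell to 36.4 in erythroblasts, against 103 in progenitors, with all 7 exons lower. Despite its name, its product is the helicase of the exon junction complex, which marks spliced mRNA.

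The binding proteins that hold Eif4e back did not pass 2-fold. Eif4ebp1, a main target of mTOR, had 56.9 in erythroblasts and 103 in progenitors, a log2 difference of -0.85 with both exons lower. Eif4ebp2 had 22.7 in erythroblasts and 30.9 in progenitors, and Eif4ebp3 had 6.51 and 4.62 in the same order. Eif4enif1, which carries the cap-binding protein into the nucleus, had 37.8 in erythroblasts and 65.7 in progenitors, with 2 of 13 exons higher.

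**Figure D3:**
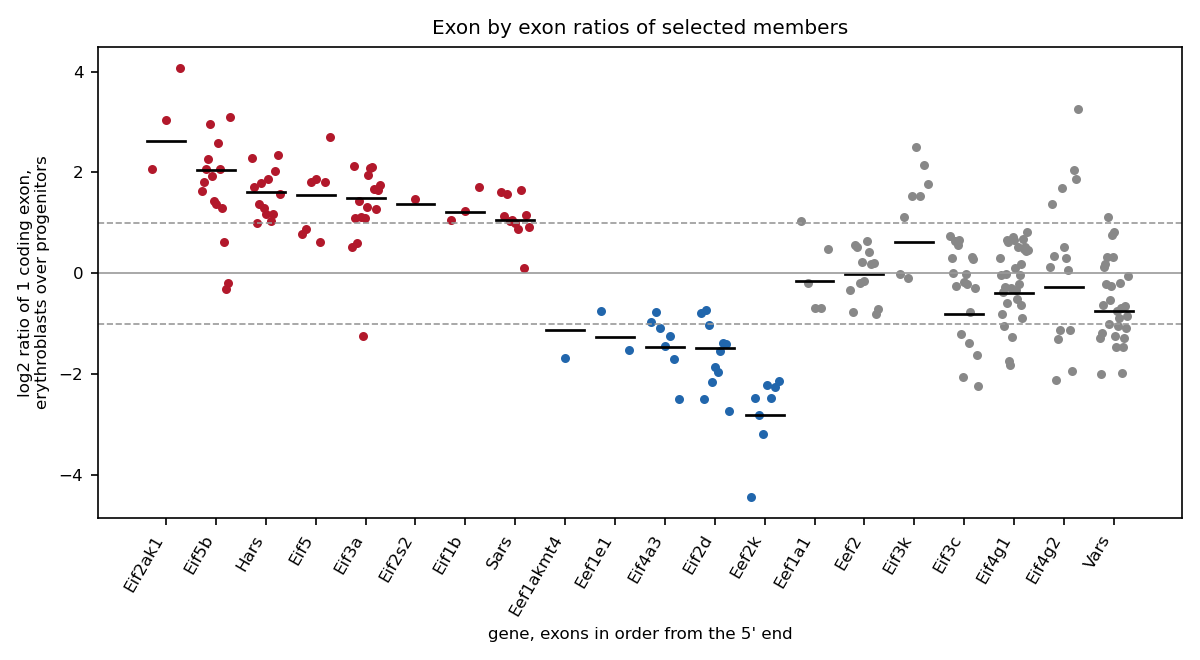
Log2 ratio of each listed coding exon (points, from the 5' end left to right within a gene), erythroblasts over progenitors, for the 13 genes past 2-fold and 7 others with high coverage or divided exons. Black bars are the summed differences; the exons of Eef2k, Eif2d and Eif4a3 all lie below zero, and those of Eif4g2 lie on both sides.

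None of the 7 elongation factor genes passed 2-fold. Eef1a1, which brings charged tRNA to the ribosome, had 3700 in erythroblasts and 4105 in progenitors, a log2 difference of -0.15. Eef2, which moves the ribosome on by a codon, had 3869 in erythroblasts and 3912 in progenitors, a difference of -0.02. These 2 genes held 51.1% of the members' summed coverage in erythroblasts and 51.0% in progenitors. As exon length is not divided out, these are shares of coverage and not of mRNA molecules. Eef1a1 has near-identical copies in the genome, and the sources used here do not say how reads were shared among them. Of the exchange factor for eEF1A, Eef1b2 had 225 in erythroblasts and 129 in progenitors, with all 6 exons higher, 4 of them more than 2-fold. Its partners Eef1d (118 and 114 in the same order) and Eef1g (269 and 239) had differences of 0.06 and 0.17. Eif5a, which helps ribosomes through proline stretches and carries the modified residue hypusine, had 103 in erythroblasts and 140 in progenitors. Eefsec, which serves selenoprotein synthesis, had 12.1 in erythroblasts and 24.1 in progenitors, at -0.94 just inside the limit.

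The 4 genes grouped as modifiers and partners of elongation factors, which take in Eef1e1 by its symbol, had a median of -1.19. The group was set from the genes in the table, so its median is a description only. Of these 4 genes 3 were past 2-fold downward, but only Eef2k was so with a pseudocount of 10. Eef2k fell to 11.3 in erythroblasts, against 86.0 in progenitors, a log2 difference of -2.82. All 8 of its exons were lower by more than 2 on the log2 scale, from -4.43 for the first listed exon (1.11 in erythroblasts, 23.9 in progenitors) to -2.15 for the last. Its target gene Eef2 differed by -0.02, as given above. Eef1e1, which despite its name is a partner of the multisynthetase complex, fell to 4.995 in erythroblasts, against 13.3 in progenitors, on 2 exons. Eef1akmt4, a methyltransferase of eEF1A, had 1.18 in erythroblasts and 3.75 in progenitors on 1 exon. Eef1aknmt, another such enzyme, lay just inside the limit at -0.98, with 2.13 in erythroblasts and 5.19 in progenitors.

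Among 18 cytosolic synthetase genes Hars and Sars rose and none fell. Hars, for histidine, had 80.7 in erythroblasts and 25.6 in progenitors, and all 13 exons were higher, by 0.99 to 2.34. Sars, for serine, had 176 in erythroblasts and 83.7 in progenitors, with all 11 exons higher, and at 1.06 was the nearest to the limit among the genes that rose. Dars, for aspartate, was the nearest outside it, at 0.85 with 63.7 in erythroblasts and 34.97 in progenitors. Aars, for alanine, had 288 and 187 in the same order, with 18 of 20 exons higher. Vars, for valine, had 284 in erythroblasts and 475 in progenitors, the lowest difference of this role at -0.74, with 7 of 29 exons higher. Yars, for tyrosine, had all 11 exons lower (40.7 in erythroblasts, 62.9 in progenitors).

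Synthetases that share the multisynthetase complex lay on both sides of zero. Its 8 listed enzymes, Dars, Eprs, Iars, Kars, Lars, Mars1, Qars and Rars, ranged from -0.62 to 0.85 with a median of -0.23, and none passed 2-fold. Of its scaffold genes, Aimp1 rose to 20.5 in erythroblasts, against 6.65 in progenitors, with all 4 exons higher. Aimp2 had 55.7 in erythroblasts and 28.04 in progenitors, at 0.97 just inside the limit, while Eef1e1, the third, fell. Farsa and Farsb, the subunits of the phenylalanine enzyme, whose symbols are outside the rule, had differences of -0.98 and -0.04. The 10 other cytosolic synthetases had a median of -0.01.

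Mitochondrial synthetase genes had low coverage and none of 8 passed 2-fold. Their median log2 difference was -0.39, with 6 below zero and 4 resting on 1 exon. Iars2 was the highest at 0.21, with 15.7 in erythroblasts and 13.48 in progenitors. Mars2, at -0.97, had 2.17 in erythroblasts and 5.19 in progenitors. The 6 listed mitochondrial factors of translation, such as Tufm (12.7 in erythroblasts, 20.9 in progenitors), had a median of -0.21, and none passed 2-fold.

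Other genes of cytosolic translation likewise stayed mostly within 2-fold. Of 10 listed genes of recycling, termination and poly(A) binding, Paip2 rose to 9.35 in erythroblasts, against 2.10 in progenitors on 1 exon, and none fell. Its product holds back the poly(A)-binding protein, whose gene Pabpc1 had 1809 in erythroblasts and 1736 in progenitors. Of 3 listed genes that modify eIF5A or eEF2, Dph2, of the diphthamide pathway of eEF2, fell to 0.961 in erythroblasts, against 5.60 in progenitors, on 1 exon. Myc, which is known to drive genes of this machinery, fell to 55.9 in erythroblasts, against 307 in progenitors.

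EKLF peaks were common at these genes. A peak of the erythroblast list lay between the first and last listed exon starts, or at most 5 kb outside them, in 51 of the 80 genes, 63.8% (Wilson 95% interval 52.8 to 73.4%, counting error only). The share over all genes was 46.5%. For the progenitor list the count was 29 of 80, 36.25%, against 30.9% over all genes. Peaks of both lists lay at 27 members, of the erythroblast list alone at 24, of the progenitor list alone at 2, and 27 had neither. Over all genes those shares were 27.1%, 19.4%, 3.79% and 49.7%. The erythroblast list held 19353 peaks and the progenitor list 7358, and the part of list length in these classes was not tested. The members had more listed exons than other genes, a median of 7 against 3 over all genes, and longer spans, with medians of 9.37 kb and 4.39 kb. Among genes with at least 3 listed exons, erythroblast peaks lay at 42 of 60 members, 70%, against 55.1% of all 2746 such genes. The part of exon number and span in the difference was not tested beyond this.

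**Figure D4:**
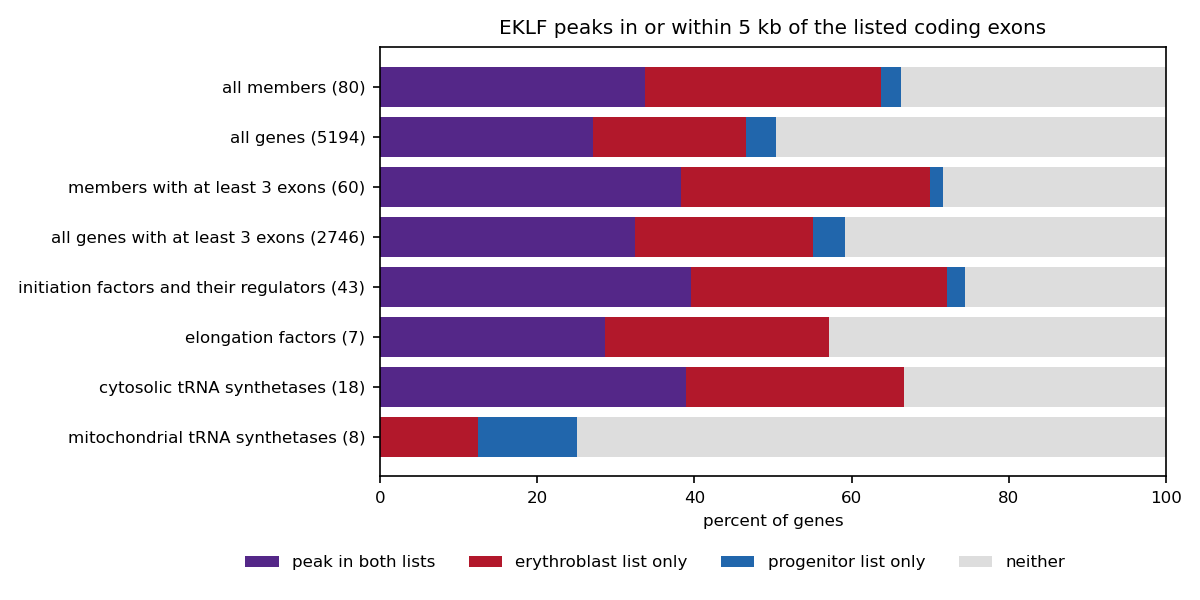
Share of genes with a peak of both lists, of 1 list or of neither, in or within 5 kb of the listed exons, for the members and for all genes, with the number of genes in brackets. Erythroblast peaks (purple and red) lie at 63.8% of the members and 46.5% of all genes, and at 1 of the 8 mitochondrial synthetase genes.

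By role, the counts ranged from none of 3 genes to 7 of 7. Over all genes 46.5% had an erythroblast peak, and 55.1% of those with at least 3 listed exons. Of the 43 initiation genes with their regulators 31 had an erythroblast peak, among them all 7 of eIF2 and eIF2B, 9 of 12 of eIF3 and 7 of 9 of start site choice and subunit joining. None of the 3 eIF2 kinase genes had a peak of either list within the window. Eif2ak3 and Eif2ak4 had 1 listed exon each, so only the surroundings of that exon were searched. Peaks elsewhere in these genes, such as at an unlisted first exon, would not be counted. For Eif2ak1 the nearest erythroblast peak lay 9.81 kb outside the listed exons and the nearest progenitor peak 138 kb outside. Of the 18 cytosolic synthetases 12 had an erythroblast peak, 7 of these among the 8 enzymes of the multisynthetase complex. Of the 10 other cytosolic synthetases 5 had one. The median span was 32.2 kb for the 8 genes of the complex, 18.1 kb for these 10 and 9.37 kb for all members. The stretch searched at genes of the complex was thus mostly longer, and the part of span in these counts was not tested. Of the 8 mitochondrial synthetases only Sars2 had an erythroblast peak and only Mars2 a progenitor peak within the window. Of these genes 4 had 1 listed exon. Their median span was 2.91 kb, against 9.37 kb for all members, so the stretch searched was mostly shorter. The numbers per role are small, and for 3 genes without a peak the Wilson interval still reaches 56.1%. For 9 of 12 and 7 of 9 it starts at 46.8% and 45.3%, close to the share over all genes. For 7 of 7 it starts at 64.6%.

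The strongest peak at a translation factor gene was that of Eif1 in both lists. In erythroblasts it ran from 100180585 to 100182711 on chromosome 11 (build mm9 for all peaks), covered the listed exon start, had an enrichment of 51.3 and ranked 87 of 19353. In progenitors it ran from 100180371 to 100182539 with an enrichment of 23.1 and ranked 66 of 7358. Enrichments are those the authors deposited, ranks follow the deposited -log10 p, and both are read inside 1 list only. The next by enrichment in the erythroblast list were those at Eif5 (31.8, chromosome 12 from 112775386 to 112777858), Eif1ad (24.8, chromosome 19 from 5365471 to 5367900), Eif3b (23.15, chromosome 5 from 140894403 to 140896375) and Aars (22.7, chromosome 8 from 113579296 to 113581667). The median enrichment was 12.4 for the 61 erythroblast peaks at members, 11.35 for erythroblast peaks at all genes of the expression table and 9.31 over that whole list. For the 33 progenitor peaks at members it was 7.42, which is below the 7.70 of progenitor peaks at all genes of the table, and 7.03 over the whole list.

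More than 50% of the peaks at members lay at the 5' end. Of the 61 erythroblast peaks 33 covered the start of the 5'-most listed exon, 54.1% against 40.2% of such pairs over all genes, and 35 had their centre within 2 kb of it, 57.4% against 51.6%. Of the 33 progenitor peaks 18 covered it, 54.5% against 44.9%. Where the table listed the first coding exon of a gene on the forward strand, an erythroblast peak lay within 1 kb of it in 12 of 14 members, 85.7% against 73.3% of all 643 such genes, and a progenitor peak in 5 of 14, 35.7% against 49.6%. Of the progenitor peaks at members 30, 90.9%, overlapped an erythroblast peak, against 85.4% at all genes. Of the 61 erythroblast peaks 30, 49.2%, overlapped a progenitor peak, against 50.8% at all genes. Not every peak within 5 kb need belong to the member: 12 of the 61 erythroblast peaks also lay within this window of another listed gene. Which gene was closer was not compared, and genes outside the expression table were not searched. The peak at the 3' end of Mars1, for example, on chromosome 10 from 126724969 to 126728938 with an enrichment of 18.5, also lay at Ddit3. The peak at Aars lay 19.7 kb downstream of its 5'-most listed exon.

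**Figure D5:**
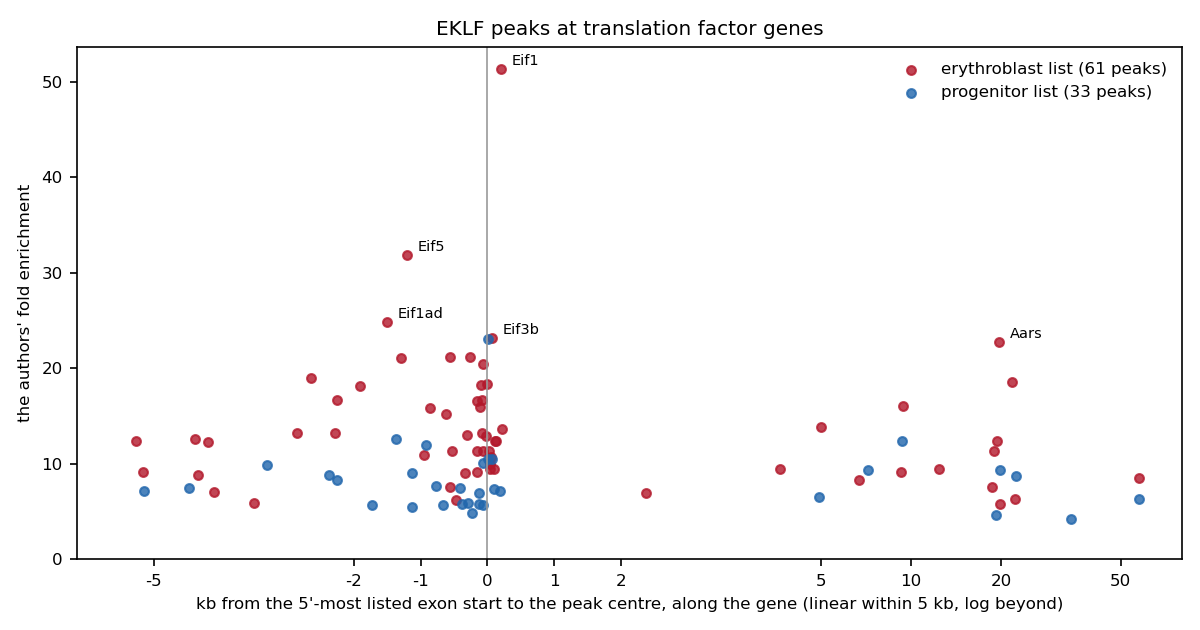
Distance along the gene from the 5'-most listed exon start to the peak centre (kb, negative upstream, linear within 5 kb and logarithmic beyond) against the authors' fold enrichment, for 61 erythroblast peaks (red) and 33 progenitor peaks (blue) at members. Most centres lie within 2 kb of the exon start, and the highest point is the erythroblast peak at Eif1, at 51.3.

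Genes that rose and genes that fell both carried peaks. Of the 8 that rose 6 had an erythroblast peak, and of the 5 that fell all had one, against 40 of the 67 that did neither. Over all genes the shares were 47.1%, 43.1% and 47.1% for genes that rose, fell and did neither. The peaks differed in place and rank. At Eif5b the erythroblast peak (chromosome 1 from 38053014 to 38056124, enrichment 21.2) and the progenitor peak (from 38053016 to 38055716, enrichment 7.65) both covered the 5'-most listed exon and also lay at Txndc9. At Eif3a likewise both lists had a peak there, with enrichments of 11.35 in erythroblasts and 5.69 in progenitors. At Eef2k the erythroblast peak had an enrichment of 6.29, ranked 18154 of 19353, and its centre lay 22.2 kb inside the gene. At Eif2d it had 8.27, ranked 18371, and lay 6.70 kb inside. At Eif4a3, which also fell, the erythroblast peak had an enrichment of 20.4 and covered the 5'-most listed exon. Hars rose with no peak of either list within the window, as did Eif2ak1.

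The elongation factors also held genes with and without peaks. At Eef1a1 both lists had a peak over the 5'-most listed exon, with enrichments of 15.8 in erythroblasts and 11.9 in progenitors, and its log2 difference was -0.15. At Eef2, at -0.02, no peak lay within the window, the nearest being 9.18 kb away in erythroblasts and 9.02 kb in progenitors. Eef1b2, with 225 in erythroblasts and 129 in progenitors, had a peak of the erythroblast list alone, with an enrichment of 18.2. Eif4ebp1 had a peak of the erythroblast list alone as well, with an enrichment of 13.6 over its 5'-most listed exon. By peak class, the median log2 difference was -0.26 for the 27 members with peaks of both lists and -0.21 for the 24 with erythroblast peaks alone. It was -0.81 for the 2 with progenitor peaks alone and -0.30 for the 27 with neither. Over all genes the medians of these classes were 0.03, 0.08, -0.01 and 0.01 in the same order.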

How the data were processed

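RNA coverage and EKLF peaks were analysed for 2 fetal liver stages. The deposited expression table is named RPKM, but its values came out as whole numbers of a fixed step (100% within 0.01 of a step), with 2151 steps per unit in erythroblasts and 1835 in progenitors, so its values are read as the authors' coverage signal per coding exon. The column sums were 333353 in erythroblasts and 312559 in progenitors. Whether the erythroblast column pools both libraries, whether strand was used in counting, and which aligner, counter and peak caller were run, were not given in the sources used here. Build mm9 is named in the submitters' processing notes. Peak lists, as deposited, hold a fold enrichment (column 7) and a -log10 p (column 8), units taken from the values.

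Of 6853 transcripts 6772 matched symbols in the RefSeq table of GRCm38.p6. Ties in exon number went to the transcript with more coverage. Genes needed at least 1 in either stage. Differences are log2 of summed signal plus 1, with no test. The planned model needs a column per library and was not used. Members and lists were chosen with earlier results of these data known, and role groups were set from the genes in the table. Named are genes past 2-fold, those near the limit, the best covered of each role and the strongest peaks. Sequences are from RefSeq. Scripts ran in Python 3.11.15 with scipy 1.17.1, numpy 2.4.6 and pandas 2.3.3. Alternatives were other pseudocounts, scalings, filters, exon summaries, windows, peak subsets and member sets.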

Additional observations from a re-analysis of the deposited data

How the results depend on the processing

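The number of members that fell was 8 of 80 with a pseudocount of 0.1 and 8 of 80 with quantile normalization. By the median of the exon ratios it was 10 of 80. Over all genes 15.6%, 14.4% and 14.6% fell in the same order. Members that fell were 3 of 80 with a pseudocount of 10 and 3 of 59 with at least 20 in the higher stage. With at least 3 listed exons they were 3 of 60. Over all genes these shares were 5.35%, 16.5% and 12.3%. Without kinases, binding proteins and other regulators 2 of 69 fell, since 3 of the 5 are regulators. The share over all genes there was 13.2%. The number that rose was 5 of 80 with a pseudocount of 10, against 6.82% of all genes. Under the other alternatives it was between 7 and 10, against 14.2% to 19.6% of all genes. The members' median difference lay between -0.33 and -0.13 under the 12 alternatives, below that of all genes in each, by 0.19 to 0.31. With the higher-ranked 50% of each peak list, erythroblast peaks lay at 32 members and progenitor peaks at 18, 40% and 22.5%, against 29.4% and 18.5% of all genes. Within 50 kb, 56 members had a progenitor peak, 70% against 70.1% of all genes, and 74 an erythroblast peak, 92.5% against 88.1%. By the exon median Eif3k and Eef1b2 also passed 2-fold upward. No call changed direction. Leaving out a library could not be done with 1 column per stage. No paired analysis was possible because no column or peak list carries a replicate number. Depth in reads is unknown, as the values are coverage.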

Other observations

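Neighbouring exons of some genes differed in opposite directions. In Eif4g2 exons 4 to 6 from the 5' end had 6.85, 14.4 and 5.40 in erythroblasts, against 29.9, 35.7 and 11.7 in progenitors, while the last 3 had 12.6, 4.46 and 8.37 in erythroblasts, against 3.03, 1.22 and 0.877 in progenitors. In Dars and Nars single exons ranged from -1.85 to 2.90 and from -2.15 to 1.94 on the log2 scale. Over the members the median SD of exon ratios within a gene was 0.66, and over all genes 0.61. Of the 68 members with at least 2 listed exons, 22 had all exons on 1 side of zero, among them Hars, Eif5, Eef2k and Eif2d, against 1713 of 3643 over all genes, which had fewer listed exons (median 3, against 7 for the members). Of the 657 member exons 46.7% were higher in erythroblasts, against 53.4% of all 22385 exons. The cause of such splits within a gene was not tested.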
